A study of Mus musculus with 18 samples.

Results

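Ribosome biogenesis and RNA polymerase I genes were followed across all 6 groups of a Ddx41 deletion experiment in mouse haematopoietic progenitor cell lines. The set is a list of 49 named genes among 24062 in the count table: 8 of RNA polymerase I and its factors, 9 of small nucleolar ribonucleoproteins (snoRNPs), 17 of small subunit assembly, 12 of large subunit assembly and 3 nucleolar scaffold genes. The rule that names them uses their function; the list was drawn up with earlier results of these data known. All 49 passed the filter on low counts, as did 12859 genes in all.

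RNA polymerase I transcribes the ribosomal DNA repeats in the nucleolus into a long precursor RNA. SnoRNPs then modify nucleotides of that precursor, and assembly factors fold, cut and package it into the small and the large ribosomal subunit. Dividing haematopoietic progenitors make ribosomes at a high rate, and inherited defects of several of these factors cause blood or craniofacial disease.

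The cells were lineage-negative bone marrow cells of mice with both, 1 or no floxed Ddx41 allele, immortalized with a retrovirus carrying MLL-AF9, a leukaemia fusion gene, and kept in IL-3, SCF and IL-6. All carried Rosa-CreERT, a Cre recombinase that 4-hydroxytamoxifen (4OHT) activates, and all were treated for 48 h with 1 µM 4OHT or with ethanol, its solvent. FF_4OHT cells were labelled Ddx41 -/- and FF_EtOH cells flox/flox. Het_4OHT cells were labelled +/- and Het_EtOH cells +/flox, and WT_4OHT and WT_EtOH cells both +/+. Each group had 3 libraries, named A, B and C. The labels give neither the number of lines per genotype nor whether the letters were separate cultures, so genotype and line cannot be told apart and the p-values measure the spread between libraries, which may be technical.

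Counts per library summed to between 24730213 (FF_4OHT C) and 49277884 (Het_EtOH A). Ddx41 itself had 14.6 to 17.7 CPM (counts scaled to library size by TMM) in FF_4OHT libraries against 73.7 to 112 CPM in FF_EtOH libraries, 41.3 to 58.4 CPM in Het_4OHT libraries against 68.0 to 79.1 CPM in Het_EtOH libraries, and 75.5 to 93.0 CPM in WT_4OHT libraries against 80.1 to 89.6 CPM in WT_EtOH libraries. The library labelled FF_EtOH C held 86.3 CPM of the Y-linked gene Eif2s3y, which had 0 counts in the other 5 FF libraries, and the library labelled WT_4OHT C held none, against 66.4 to 101 CPM in the other 5 WT libraries. The library labelled Het_4OHT A had the lowest mean correlation with its own group, 0.959, against 0.962 to 0.993 for the other 17 libraries. WT_EtOH C was left out too in one alternative, although its correlation of 0.987 lay within that range. Of 8 progenitor markers all were in the table, but Cd34 stayed at or under 4.93 CPM in every library. B cell, T cell, erythroid and epithelial markers summed to at most 0.569 CPM in any library, while the stromal gene Pdgfrb averaged 16.1 to 18.4 CPM in the Het groups and at most 0.890 CPM in the others.

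In FF cells 4OHT lowered 5 of the 49 genes and raised 1. Polr1a, Tcof1, Nat10, Dkc1 and Bop1 fell and Polr1c rose, by edgeR's quasi-likelihood test with Benjamini-Hochberg adjustment over all 12859 genes at 0.05. The 5 that fell are 10.2% of the members, where 8.29% of all tested genes fell, and the 1 that rose is 2.04%, where 5.16% of all tested genes rose. Both shares lie near the background, so the counts say nothing particular of the set. The median log2 fold change of the 49 was -0.18, beside -0.02 for all tested genes. Of the 49 estimates 38 lay below 0, beside 6687 of 12859 for all tested genes. In a bulk measurement such as this, fewer cells that express a gene and less RNA per cell cannot be told apart. All 6 calls held without FF_EtOH C and WT_4OHT C, and also when WT_EtOH C or Het_4OHT A was left out with them. With Het_4OHT A left out too, 12 members passed, or 24.5%, where 21.5% of all tested genes did.

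**Figure D1:**
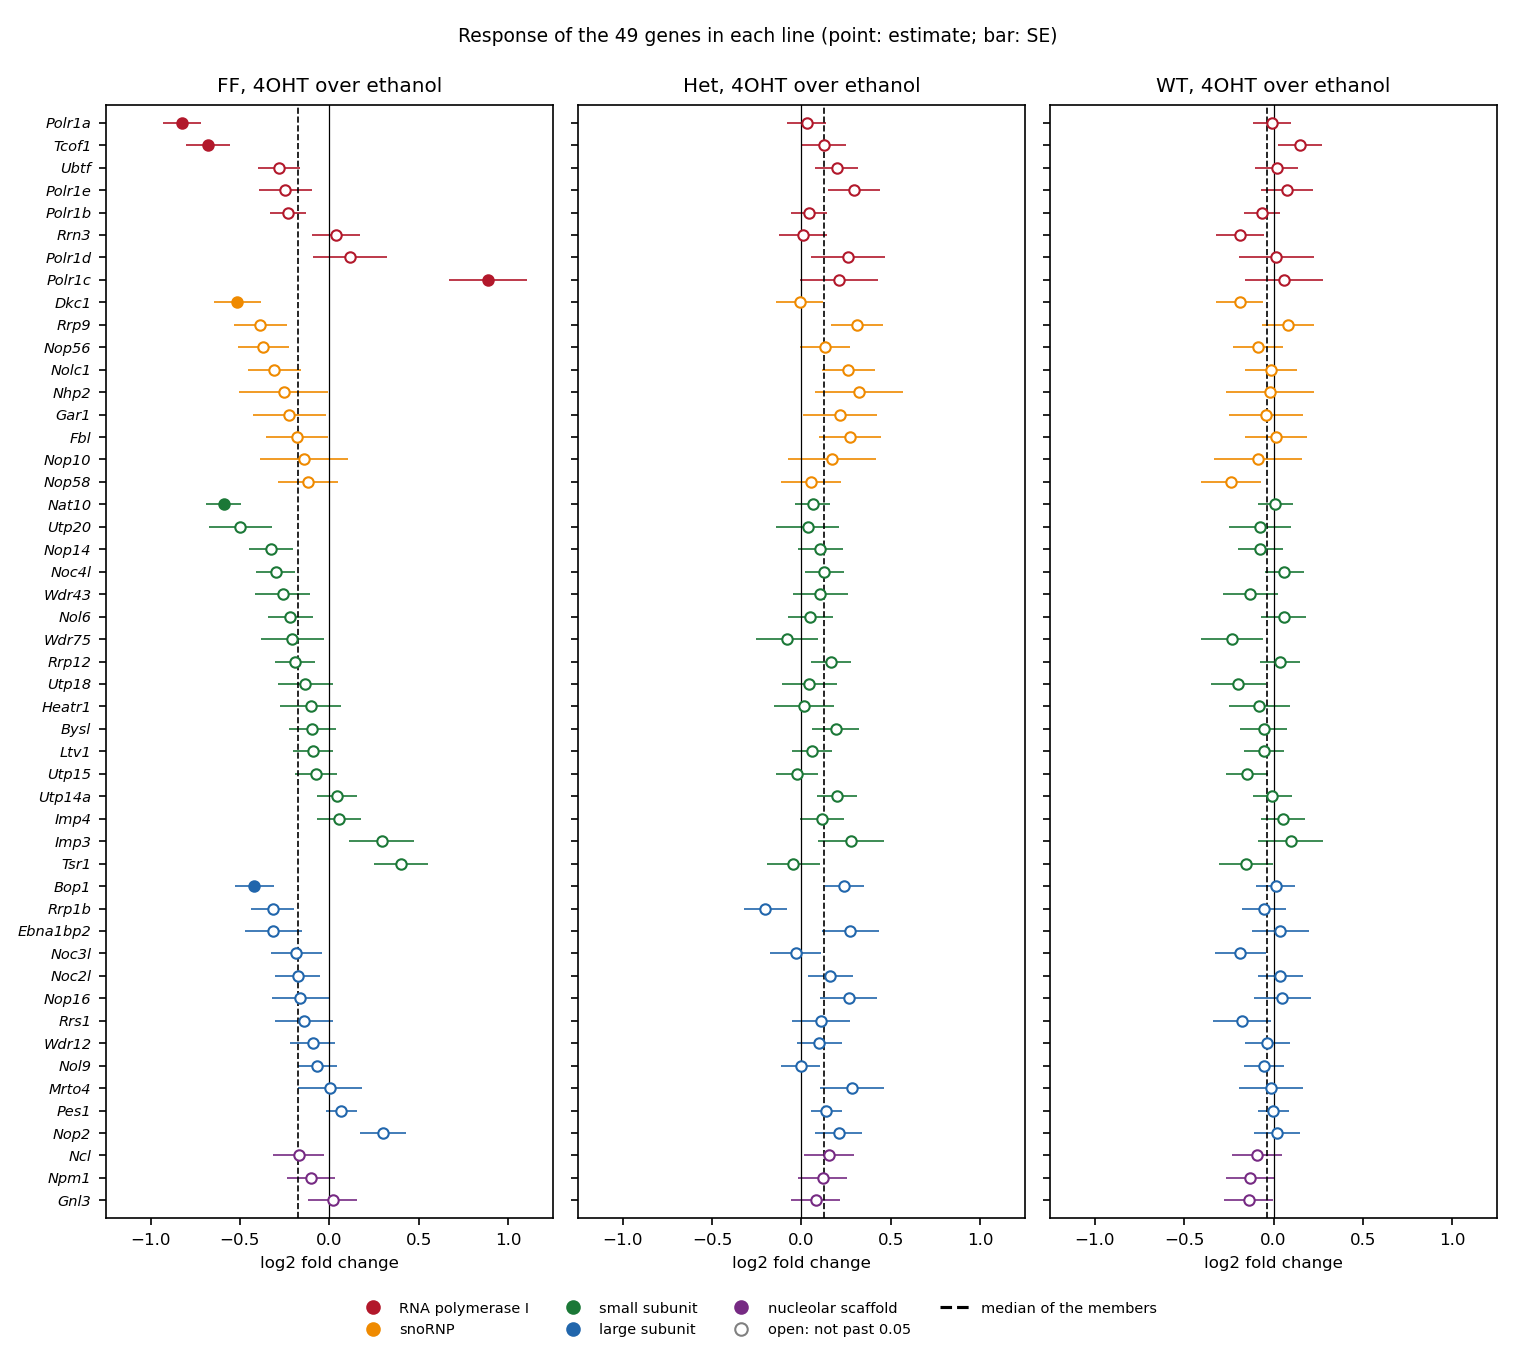
Log2 fold change of 4OHT over ethanol (horizontal axis) for the 49 genes (rows, by role) in FF, Het and WT cells. Points are edgeR estimates and bars their SE, filled points passed the threshold, and dashed lines mark the members' medians of -0.18, 0.13 and -0.04. All 6 filled points are in FF cells.

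RNA polymerase I itself moved in opposite directions at 2 of its subunits. Polr1a encodes the catalytic largest subunit. It lies on chromosome 6 (GRCm38, chr6:71909053-71984935, plus strand) and is protein coding. Its exons share 185 bases with the antisense gene Gm26628. Its level was 76.2, 80.0 and 69.1 CPM in FF_4OHT libraries A, B and C, against 136, 138 and 126 CPM in FF_EtOH libraries. The FF_4OHT values lay below all 15 other libraries, of which the lowest was Het_4OHT A at 104 CPM. The fitted level was 56.5% of that in ethanol, a log2 fold change of -0.82 ± 0.11 (SE; edgeR adjusted p = 0.000271). The call held in each of 6 omissions of a single FF library, with estimates of -0.86 to -0.76.

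Tcof1 encodes treacle, a nucleolar protein that works with Ubtf on ribosomal DNA. It had 115, 126 and 111 CPM in FF_4OHT libraries, against 215, 190.2 and 158 CPM in FF_EtOH libraries. Again the FF_4OHT values lay below every other library, the lowest of which was Het_EtOH B at 152 CPM. The log2 fold change was -0.68 ± 0.12 (SE; edgeR adjusted p = 0.00237), and it too held in all 6 omissions. FF_EtOH A was far higher than FF_EtOH C, so the ethanol group was wide, with a mean of 188 ± 28.6 CPM (SD, n = 3).

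Polr1c, on chromosome 17 (chr17:46243920-46248054, minus strand), encodes a subunit that RNA polymerases I and III share. Its level was 53.1, 56.5 and 61.2 CPM in FF_4OHT libraries, against 22.8, 32.1 and 37.5 CPM in FF_EtOH libraries. The groups did not overlap, but the library Het_4OHT A, at 60.1 CPM, stood as high as the FF_4OHT libraries. The log2 fold change was 0.89 ± 0.22 (SE; edgeR adjusted p = 0.0145). Without FF_EtOH A the adjusted p was 0.0657, with an estimate of 0.71, and without FF_4OHT C it was 0.0548.

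The other 5 genes of this class did not pass. Ubtf, the factor that coats active ribosomal DNA, was at -0.28 on the log2 scale (edgeR adjusted p = 0.133), Polr1e at -0.25 and Polr1b, which helps form the active site, at -0.23. Rrn3, which recruits the polymerase to its promoter, was at 0.04. Polr1d, which pairs with Polr1c in the enzyme and is also shared with RNA polymerase III, was at 0.12 ± 0.21 (SE). So the Polr1c rise stood beside a Polr1d estimate close to 0 and a fall of the catalytic subunit in the same libraries.

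**Figure D2:**
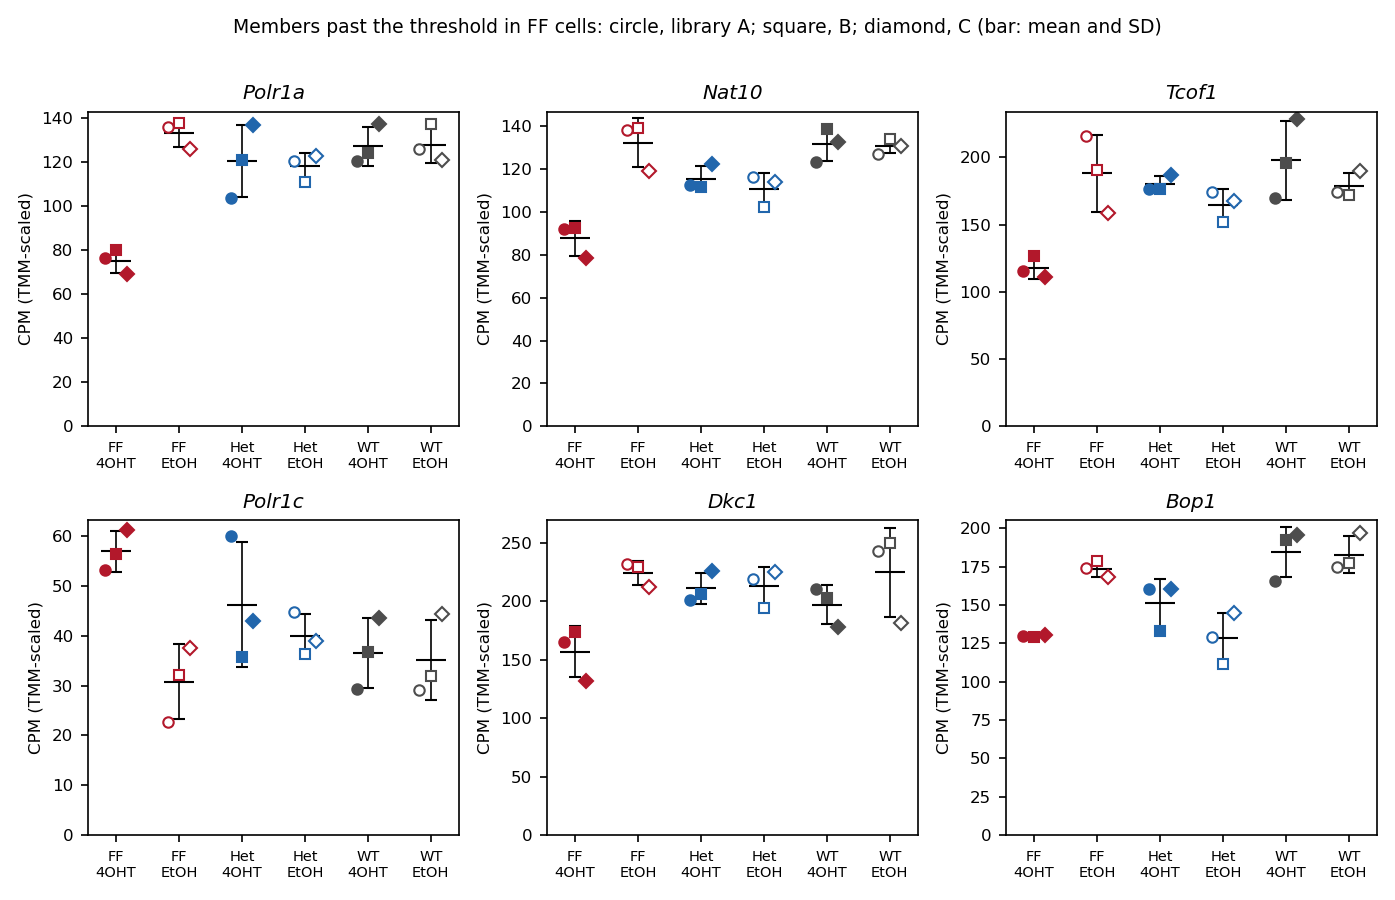
TMM-scaled CPM (vertical axes, from 0) of the 6 genes that passed in FF cells, in all 18 libraries, with the group mean and SD as bars. Filled symbols are 4OHT and open symbols ethanol; FF_4OHT libraries are the lowest of all libraries for Polr1a, Nat10, Tcof1 and Dkc1, while Polr1c in Het_4OHT A (60.1 CPM) lies among the FF_4OHT values.

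Among the snoRNP genes Dkc1 alone passed. Dkc1 encodes dyskerin, the enzyme of the H/ACA snoRNPs that turns uridine into pseudouridine and that is also part of telomerase. It lies on the X chromosome (chrX:75095854-75109777, plus strand), and its exons share 45 bases with Mpp1 on the other strand. Its level was 165, 174 and 132 CPM in FF_4OHT libraries, against 232, 229 and 213 CPM in FF_EtOH libraries. FF_4OHT B, the highest of its group, lay just under the lowest other library of the series, WT_4OHT C at 178 CPM. The log2 fold change was -0.52 ± 0.13 (SE; edgeR adjusted p = 0.0168), with an adjusted p of 0.12 without FF_4OHT C and 0.0502 without FF_EtOH A.

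All 9 snoRNP estimates lay below 0 in FF cells, between -0.52 and -0.12, with a median of -0.26. The partners of dyskerin in the H/ACA particle gave -0.26 (Nhp2), -0.22 (Gar1) and -0.14 (Nop10) with SE of 0.21 to 0.25, so they were not separable from 0. For the core of the C/D particle, which methylates ribose, the estimates were -0.37 ± 0.14 for Nop56 (edgeR adjusted p = 0.0954), -0.18 ± 0.17 for the methyltransferase Fbl and -0.12 ± 0.17 for Nop58 (SE). Rrp9, specific to the snoRNP of the small subunit processome, was at -0.39 (edgeR adjusted p = 0.094), and the snoRNP chaperone Nolc1 at -0.31.

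Of the small subunit genes Nat10 alone passed among 17. Nat10 encodes the acetyltransferase that marks cytidines of the small subunit ribosomal RNA, and it lies on chromosome 2 (chr2:103721256-103761270, minus strand). Its level was 92.2, 92.7 and 78.3 CPM in FF_4OHT libraries, against 138, 139 and 119 CPM in FF_EtOH libraries. No other library reached down to the FF_4OHT values, the nearest being Het_EtOH B at 102 CPM. The log2 fold change was -0.59 ± 0.10 (SE; edgeR adjusted p = 0.00128), and it held in all 6 omissions, between -0.66 and -0.51.

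The other small subunit genes spread on both sides of 0. Utp20, a large scaffold of the processome, had the next lowest estimate at -0.50 ± 0.17 (SE; edgeR adjusted p = 0.071), followed by Nop14 (-0.33), Noc4l (-0.30), Wdr43 (-0.26), Nol6 (-0.22) and Wdr75 (-0.21). Rrp12, Utp18, Heatr1, Bysl, Ltv1 and Utp15 lay between -0.19 and -0.07. Utp14a (0.04), Imp4 (0.05), Imp3 (0.29) and Tsr1 (0.40) were above 0, Tsr1 with an edgeR adjusted p of 0.0902. Tsr1, a GTPase-like factor of late small subunit maturation, shares 1240 exonic bases with Srr on the other strand. Whether counting used strand is not given in the sources used here, so reads of the pair cannot be told apart.

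In the large subunit class Bop1 fell. Bop1 forms a complex with Pes1 and Wdr12 that processes the precursor of the large subunit RNA. It lies on chromosome 15 (chr15:76452989-76477277, minus strand), and its exons share 50 bases with Mroh1 on the other strand. Its level was 129.7, 129 and 131 CPM in FF_4OHT libraries, against 174, 179 and 168 CPM in FF_EtOH libraries. The FF_4OHT values were nearly equal and lay below FF_EtOH, but within the 111 to 144 CPM of the Het_EtOH libraries. The log2 fold change was -0.42 ± 0.11 (SE; edgeR adjusted p = 0.0191). It no longer passed without FF_EtOH B (adjusted p = 0.058) or without any one of FF_4OHT A, B or C (0.0548, 0.062 and 0.07).

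Its partners did not follow it past the threshold: Wdr12 was at -0.09 ± 0.13 and Pes1 at 0.07 ± 0.09 (SE). The remaining estimates were -0.32 for Rrp1b, -0.31 for Ebna1bp2, -0.19 for Noc3l, -0.18 for Noc2l, -0.16 for Nop16, -0.14 for Rrs1, -0.07 for the RNA kinase Nol9 and 0.01 for Mrto4. Nop2, a methyltransferase of the large subunit RNA, was at 0.30 (edgeR adjusted p = 0.134).

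None of the 3 nucleolar scaffold genes passed in FF cells. Ncl encodes nucleolin, which binds the precursor RNA, and it had 1887, 1777 and 1462 CPM in FF_4OHT libraries, against 1788, 2128 and 1861 CPM in FF_EtOH libraries. Npm1 encodes nucleophosmin, the abundant protein of the outer nucleolus and a gene often mutated in acute myeloid leukaemia. It had 1684, 1511 and 1333 CPM in FF_4OHT libraries, against 1478, 1801 and 1587 CPM in FF_EtOH libraries. The groups overlapped for both genes, with log2 fold changes of -0.17 ± 0.14 and -0.10 ± 0.14 (SE). Gnl3, nucleostemin, was at 0.02.

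Summed over the 49 genes, the level was 8117 to 9525 CPM in FF_4OHT libraries, against 9674 to 10660 CPM in FF_EtOH libraries, and FF_4OHT C was the lowest library of the series. Without Npm1 and Ncl, the sums were 5323 to 5995 CPM in FF_4OHT and 6226 to 6732 CPM in FF_EtOH libraries. Het_EtOH B was then the lowest library of the series, at 5146 CPM. Other readings moved in the same libraries. The 3 monocyte genes in the table, of 4 listed, summed to 1242 to 1695 CPM in FF_4OHT libraries, against 276 to 366 CPM in FF_EtOH libraries, and none was at 0. The progenitor list summed to 1490 to 1907 CPM in FF_4OHT libraries, against 1735 to 3440 CPM in FF_EtOH libraries. Of its 8 genes only Mpo passed, with a mean of 359 CPM in FF_4OHT against 1458 CPM in FF_EtOH libraries. The 8 estimates were split, 4 above and 4 below 0. Rn45s, the table's entry for the ribosomal RNA precursor, had 5987, 18286 and 41160 CPM in FF_4OHT libraries A, B and C, against 4539, 3828 and 6464 CPM in FF_EtOH libraries. How RNA was selected for the libraries is not given in the sources used here. Mature ribosomal RNA is cut from this precursor, so its reads and those of the precursor cannot be told apart in the Rn45s counts. The part of the marker and Rn45s readings in the members' changes was not tested.

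Neither single-allele deletion nor 4OHT alone moved a member past the threshold. In Het cells 0 of 49 passed, where 0.0156% of all tested genes did, and in WT cells 0 of 49, where 0.0% did (edgeR). At an unadjusted p under 0.05 there was 1 member in Het cells, Bop1 at 0.24, and 0 in WT cells. Of all tested genes 101 were higher and 145 lower at that level in Het cells, and 247 higher and 28 lower in WT cells. DESeq2 called 0 members in either line, and 17 and 4 of all genes. The members' median was 0.13 in Het cells, with 42 of 49 estimates above 0, and -0.04 in WT cells, with 18 above 0. Over all 12859 tested genes 6447 estimates lay above 0 in Het cells and 6509 in WT cells. The Het median fell to 0.03 when Het_4OHT A was left out together with FF_EtOH C and WT_4OHT C. Het_4OHT A held 11083 CPM of the 49 genes in sum, the highest of all libraries, and 14895 CPM of Rn45s, against 1964 and 3308 CPM in Het_4OHT B and C.

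None of the 6 genes that passed in FF cells passed in the other lines. Polr1a was at 0.03 in Het and -0.01 in WT cells, Nat10 at 0.06 and 0.01, and Tcof1 at 0.13 and 0.15. Dkc1 was at -0.01 in Het and -0.19 in WT cells, Bop1 at 0.24 and 0.01, and Polr1c at 0.21 and 0.06 (log2 fold changes, SE 0.10 to 0.22).

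Tested directly, the FF response was lower than the WT response for 3 of 49 members, or 6.12%, where 1.89% of all tested genes were lower. It was lower than the Het response for 4 of 49, or 8.16%, where 2.09% of all tested genes were. No member was higher in either difference in this fit (edgeR), where 0.412% and 0.404% of all tested genes were higher. At an unadjusted p under 0.05, 2 and 1 members were higher. DESeq2 called 0 and 0 members higher, where 1.38% and 1.73% of all tested genes were. At background shares this small, the absence of higher members says nothing particular of the set. The members' median difference was -0.08 from the WT response and -0.28 from the Het response, beside -0.02 for all tested genes in each. These 2 differences share the FF libraries and are not independent.

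Polr1a differed by -0.82 ± 0.15 from the WT response (SE; edgeR adjusted p = 0.012) and by -0.85 ± 0.15 from the Het response (adjusted p = 0.0096). Tcof1 differed by -0.82 ± 0.17 and -0.80 ± 0.17 (adjusted p = 0.0236 and 0.0215), and Nat10 by -0.60 ± 0.14 and -0.65 ± 0.14 (adjusted p = 0.0349 and 0.0208). Bop1 differed by -0.66 ± 0.15 from the Het response (adjusted p = 0.0347) and by -0.43 ± 0.15 from the WT response (adjusted p = 0.179). Polr1c and Dkc1 passed neither test: the differences were 0.83 ± 0.31 and 0.68 ± 0.31 for Polr1c, and -0.33 ± 0.19 and -0.50 ± 0.19 for Dkc1. For Polr1c this depended on the libraries used: without FF_EtOH C, WT_4OHT C and Het_4OHT A its differences were 1.14 and 1.09, both past the threshold (edgeR adjusted p = 0.0311 and 0.0341).

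Over omissions of a single library the Polr1a differences passed most often. The difference from WT passed in 11 of 12 omissions of a single library and that from Het in 11 of 12, both being lost without FF_4OHT C (edgeR adjusted p = 0.061 and 0.0568). The Tcof1 difference from WT passed in 4 of 12 omissions, those of FF_4OHT B, FF_EtOH C, WT_4OHT A and WT_EtOH C, and the Nat10 difference in 2 of 12, those of FF_EtOH C and WT_4OHT A. Against Het, Tcof1 was lost without FF_4OHT A or C, FF_EtOH A, Het_4OHT C, or Het_EtOH A or B, and Nat10 without FF_4OHT B or C, FF_EtOH B, Het_4OHT C, or Het_EtOH A or B. Bop1 against Het passed in 3 of 12, those of Het_4OHT A, Het_4OHT B and Het_EtOH C. Estimates in all these omissions kept their sign. Without FF_EtOH C and WT_4OHT C, whose Eif2s3y levels go against their labels, Nat10 against WT and Bop1 against Het no longer passed. Leaving out WT_EtOH C as well, Polr1a against WT did not pass either (edgeR adjusted p = 0.0937), while Tcof1 against WT still passed (0.0351). With Het_4OHT A in place of WT_EtOH C left out, all 7 differences passed, among them Nat10 against WT (0.0177), Bop1 against Het (0.0416) and Polr1a against WT (0.00673). With the compared groups alone no difference from Het passed. With all libraries kept, Nat10 against WT was also lost with no count filter. Bop1 against Het was also lost with library size only and with no count filter.

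**Figure D3:**
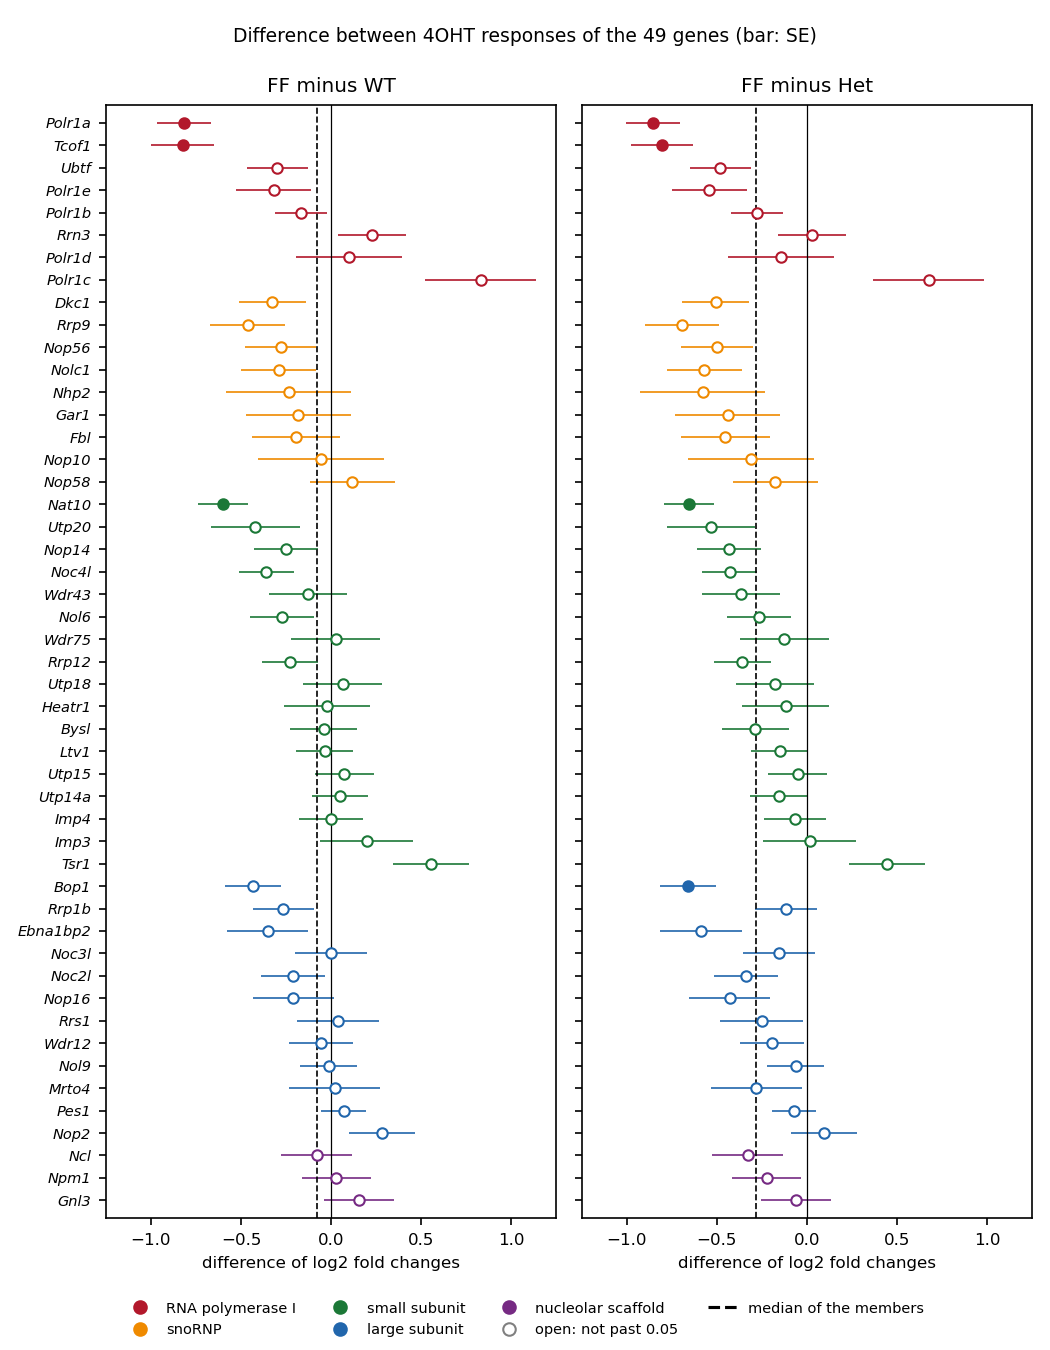
Difference between the FF response and the WT or Het response (horizontal axis, log2 units) for the 49 genes, by role. Points are edgeR estimates with SE bars, and filled points passed: Polr1a, Tcof1 and Nat10 in both panels, and Bop1 against Het at -0.66.

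The Het response differed from the WT response for 0 of 49 members, where 0.0% of all tested genes did (edgeR). The members' estimates lay between -0.15 and 0.34, with a median of 0.18 beside 0.02 for all tested genes. At an unadjusted p under 0.05 there were 0 members, beside 30 higher and 203 lower of all 12859 tested genes. DESeq2 called 0 members, beside 0.0311% of all tested genes.

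Before deletion the lines were compared in ethanol. FF_EtOH and WT_EtOH libraries differed for 0 of 49 members, where 0.0% of all tested genes did (edgeR), with estimates between -0.19 and 0.17. At an unadjusted p under 0.05 there were 0 members, beside 534 higher and 173 lower of all 12859 tested genes. DESeq2 called 0 members, beside 0.21% of all tested genes. Leaving out FF_EtOH C and WT_4OHT C, whose Eif2s3y levels go against their labels, raised the edgeR count over all genes to 614 but left that of the members at 0.

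Het_EtOH libraries were lower than WT_EtOH libraries for 4 of 49 members, or 8.16%, where 10.4% of all tested genes were lower, and higher for 0 of 49, where 13.3% were higher. The share that was lower is again near the background, while no member was higher. The members' median log2 fold change was -0.16, beside -0.03 for all tested genes. Of the 49 estimates 41 lay below 0 and 8 above, beside 6895 below and 5964 above for all 12859 tested genes. Bop1 had 129, 111 and 144 CPM in Het_EtOH libraries, against 175, 177 and 197 CPM in WT_EtOH libraries, with no overlap and a log2 fold change of -0.51 ± 0.11 (SE; edgeR adjusted p = 0.00275). Rrp12, an export factor of both subunits, had 71.6, 57.2 and 73.7 CPM against 93.7, 93.3 and 92.9 CPM in WT_EtOH libraries, which were almost equal (-0.47 ± 0.11, adjusted p = 0.00602). Bop1 held in all 6 single omissions and Rrp12 in 5, its adjusted p without Het_EtOH B being 0.0732.

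Fbl and Polr1d were less secure. Fbl had 142, 124 and 149.5 CPM in Het_EtOH libraries, against 211, 198 and 196 CPM in WT_EtOH libraries, a log2 fold change of -0.54 ± 0.17 (SE; edgeR adjusted p = 0.0328). It was lost in each of the 6 omissions, with adjusted p of 0.0505 to 0.161. Polr1d had 114, 80.6 and 101 CPM in Het_EtOH libraries, against 152, 147 and 154 CPM in WT_EtOH libraries (-0.61 ± 0.21, adjusted p = 0.0427), and passed in 1 of 6, that without Het_EtOH A. In Het_4OHT cells the library A stood apart for both, at 221 CPM for Fbl and 177 CPM for Polr1d, against 126 and 77.9 CPM in library B. The Het line also differed in cell markers, with Mpo at 117 ± 22.4 CPM in Het_EtOH against 3337 ± 776 CPM in WT_EtOH libraries (SD, n = 3 each), and the part of this in the members' differences was not tested.

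**Figure D4:**
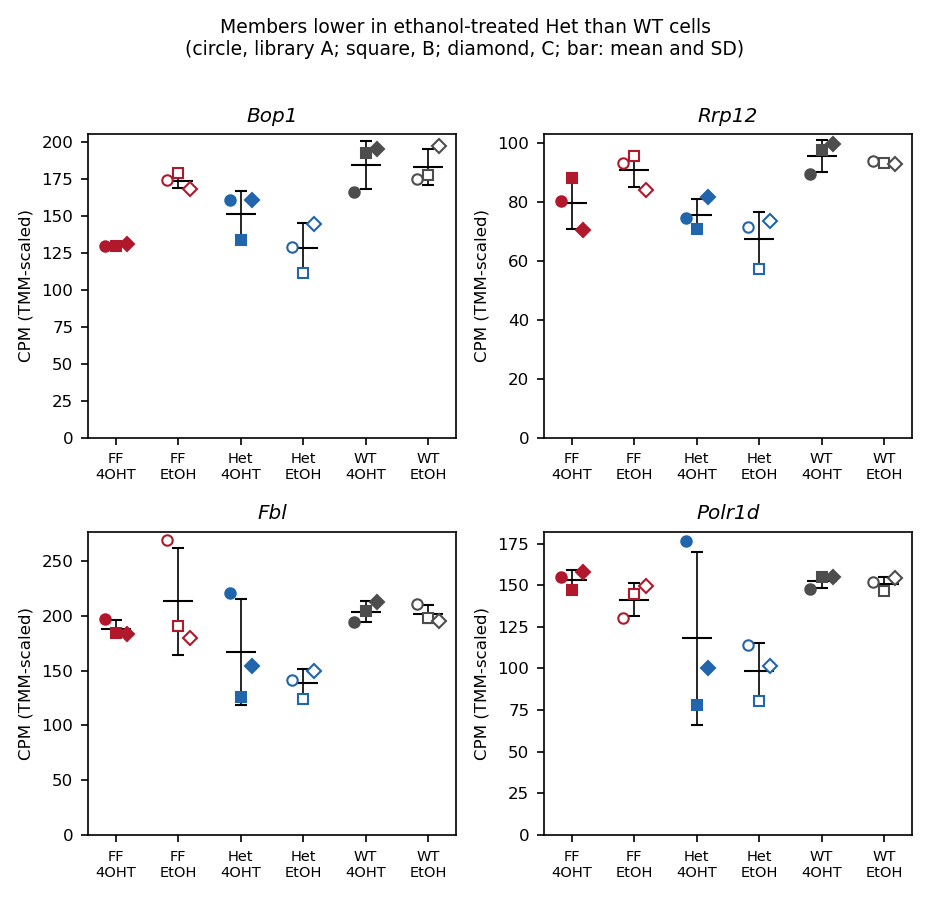
TMM-scaled CPM (vertical axes, from 0) of the 4 genes lower in Het_EtOH than in WT_EtOH libraries, in all 18 libraries, with group means and SD. For Fbl and Polr1d the library Het_4OHT A, at 221 and 177 CPM, stands far above Het_4OHT B and C.

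Levels between genes were compared per transcript length, as CPM per kilobase of the longest principal transcript (RPKM). That length was 1633 bases for Npm1 and 8202 bases for Ncl, so the order of levels depends on the transcript chosen. The 49 genes were abundant: their median over the group means was 45.6 RPKM, beside 10.6 RPKM for 11662 tested genes with a length, and 48 of 49 lay above that median. Npm1 was highest at 988 RPKM, followed by Ncl at 232 RPKM and the C/D core genes Nop56 (194 RPKM), Nop58 (169 RPKM) and Fbl (155 RPKM). Within RNA polymerase I the shared subunit Polr1d was at 114 RPKM, Polr1c at 31.2, Polr1b at 20.8, Polr1a at 12.7 and Polr1e, the lowest of the 49, at 8.82 RPKM. Per length, FF_4OHT cells had 8.15 ± 0.6 RPKM of Polr1a against 14.4 ± 0.678 in FF_EtOH cells, and 43.3 ± 3.11 RPKM of Polr1c against 23.4 ± 5.69 in FF_EtOH cells (SD, n = 3 each). The highest group mean of a gene exceeded its lowest by 1.05-fold (Nol9) to 1.85-fold (Polr1c), and Polr1a, at 1.77-fold, and Tcof1, at 1.68-fold, came next. The order of levels is a description, and neighbours in it were not tested against each other.

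**Figure D5:**
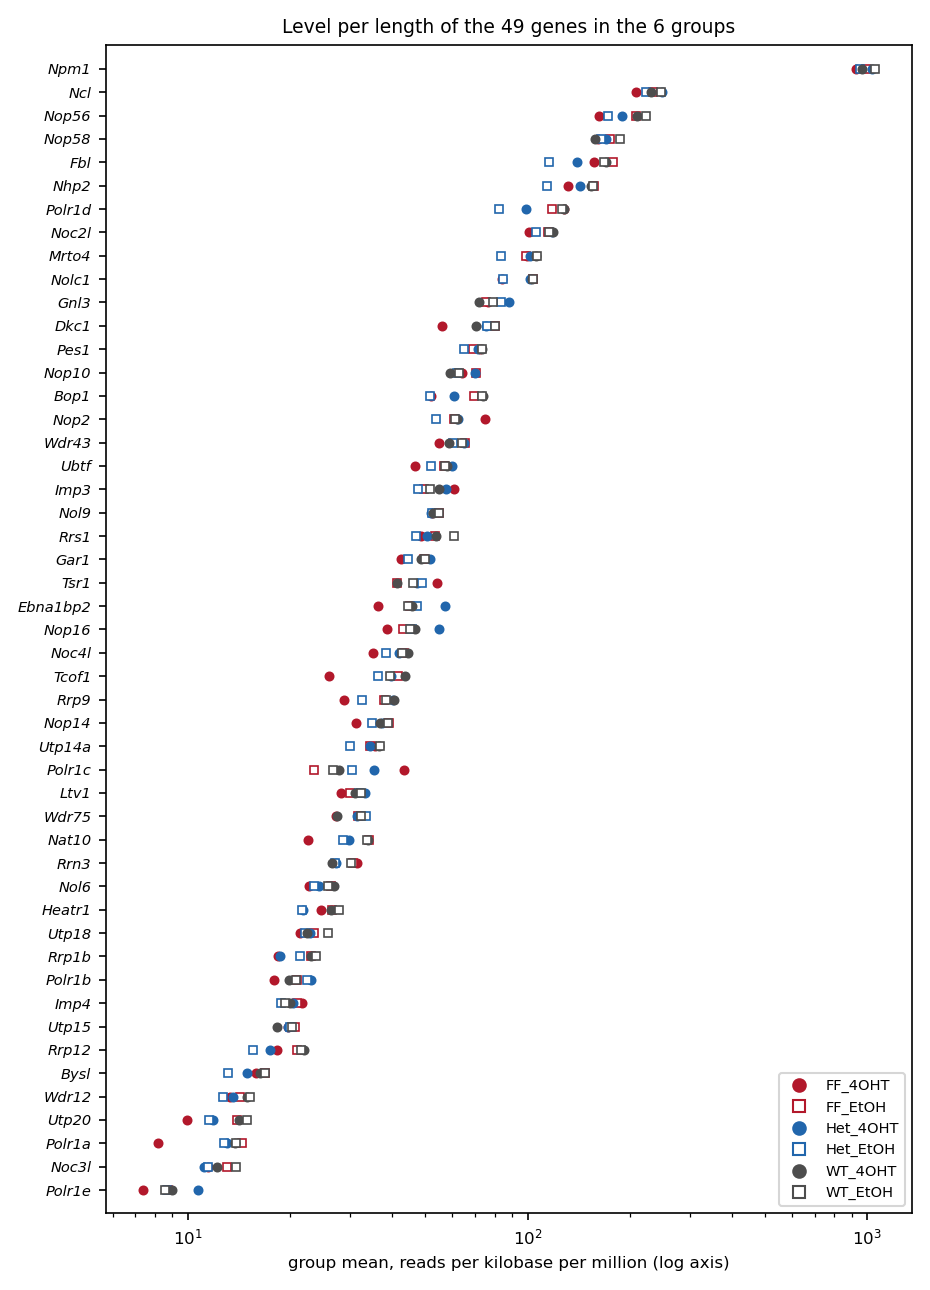
Group mean level per length (RPKM, log axis) of the 49 genes in the 6 groups, ordered by their mean. Colours are lines and filled symbols 4OHT; the set runs from Polr1e at 8.82 to Npm1 at 988 RPKM, and FF_4OHT lies at the low edge for Polr1a, Tcof1 and Nat10 and at the high edge for Polr1c.

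The bases before the annotated start are shown for the called genes with a RefSeq promoter entry, since Polr1a, Nat10 and Dkc1 fell while Polr1c rose. RefSeq windows (GRCm38.p6) were matched by symbol for 42 of 49 members, 52 windows in all, and the 250 bases upstream were searched on both strands for CACGTG (the E-box that Myc binds), CTCGCGAG, and GCATGCGC (the core of the NRF1 motif). Each is given in gene direction, 5′ to 3′, and holds none of these motifs, so no letter is in capitals. They cover chr6:71908803-71909052 (plus), chr2:103761271-103761520 (minus), chrX:75095604-75095853 (plus) and chr17:46248046-46248295 (minus).
Polr1a: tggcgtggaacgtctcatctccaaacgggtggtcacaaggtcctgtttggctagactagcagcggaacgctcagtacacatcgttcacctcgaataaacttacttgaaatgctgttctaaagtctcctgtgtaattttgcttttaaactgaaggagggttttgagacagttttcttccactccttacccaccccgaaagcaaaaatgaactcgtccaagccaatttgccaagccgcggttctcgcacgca
Nat10: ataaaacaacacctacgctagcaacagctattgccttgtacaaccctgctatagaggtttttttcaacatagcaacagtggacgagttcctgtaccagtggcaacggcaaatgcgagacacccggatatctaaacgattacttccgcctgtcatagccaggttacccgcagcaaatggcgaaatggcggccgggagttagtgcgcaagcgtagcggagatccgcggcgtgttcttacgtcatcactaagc
Dkc1: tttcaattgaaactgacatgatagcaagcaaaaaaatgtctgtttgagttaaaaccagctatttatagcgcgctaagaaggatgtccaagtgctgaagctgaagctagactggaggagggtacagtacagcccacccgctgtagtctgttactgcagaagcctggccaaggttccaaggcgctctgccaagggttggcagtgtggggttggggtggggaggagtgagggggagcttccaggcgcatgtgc
Polr1c: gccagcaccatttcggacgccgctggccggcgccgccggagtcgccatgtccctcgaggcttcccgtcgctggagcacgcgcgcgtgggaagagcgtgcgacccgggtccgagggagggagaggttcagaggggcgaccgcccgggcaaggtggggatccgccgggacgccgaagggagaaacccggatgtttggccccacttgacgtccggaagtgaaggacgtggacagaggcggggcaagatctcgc
GC made up 47.6%, 50.8% and 52.0% of the windows of Polr1a, Nat10 and Dkc1, and 70.4% of that of Polr1c, beside a median of 58.0% over member windows and 52.4% over 32851 windows in all. The E-box was found in 4 member windows (7.69%), beside 6.02% of all windows: those of Imp4, Nop2, Rrn3 and Utp18. CTCGCGAG was found in 2 (3.85%), those of Nol9 and Tsr1, beside 0.761% of all, and the NRF1 core in 0, beside 2.26%. A match is a run of letters and does not show that a factor binds there.

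Several of these genes carry snoRNAs within their gene bodies, most such RNAs being released from introns of the spliced host transcript. By coordinates, 21 snoRNA genes lay inside 7 members on the same strand, 11 of them in the table (in Nop56, Nop58, Wdr43, Tsr1, Ncl and Gnl3), and 7 passed the filter on counts. None passed in FF cells (edgeR; 1 at an unadjusted p under 0.05, Snord57). The highest estimates, named here after their values were seen, were for the C/D snoRNAs of Nop56, whose sequences are shown with TGATGA, the letters of box C, and the last CTGA, those of box D, in capitals; Snord57 holds no TGATGA. They come from chr2:130275506-130275573 and chr2:130278016-130278087 (GENCODE M21, GRCm38, plus strand).
Snord110: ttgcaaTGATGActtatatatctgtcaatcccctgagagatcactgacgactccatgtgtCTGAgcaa
Snord57: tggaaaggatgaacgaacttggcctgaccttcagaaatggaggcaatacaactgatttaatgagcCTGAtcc
Snord110 had 50 counts over the FF_4OHT libraries and 17 over the FF_EtOH libraries (log2 fold change 1.5 ± 0.79 SE; edgeR adjusted p = 0.236), and Snord57 had 107 and 38 counts (1.48 ± 0.64 SE; adjusted p = 0.143). Snord110 is intronic, while Snord57 overlaps an annotated exon of Nop56, so its reads and those of the host cannot be told apart there. In the same libraries the host Nop56 was at -0.37 ± 0.14 (SE). Neither change passed the threshold, and at counts this low the estimates were imprecise.

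Of 128 other genes of the pathway, listed by function, 5 rose and 13 fell in FF cells, and 0 passed in Het or WT cells (edgeR). Those are 3.91% and 10.2% of the list, near the 5.16% and 8.29% of all tested genes. The RNase MRP and exosome list, which trims the precursor's spacers, gave 6 of 26 lower: Pop1, Rpp40, Exosc1, Exosc2, Exosc5 and Exosc8. That is 23.1%, beside 8.29% of all tested genes, but 0 of the 26 passed in the difference from the WT or the Het response. Among other RNA polymerase I genes 2 of 13 were higher, Taf1c of its promoter complex (39.2 ± 1.43 CPM in FF_4OHT against 27.1 ± 0.872 CPM in FF_EtOH libraries; SD, n = 3 each) and the terminator factor Ttf1 (58.9 ± 3.99 CPM against 41.4 ± 7.75 CPM in FF_EtOH libraries). These genes were named after their values were seen. The smallest adjusted p on the whole list were those of Eftud1, a GTPase that frees the new large subunit (-0.83), the methyltransferase Ftsj3 (-0.74), the GTPase Bms1 (-0.48) and the helicase Ddx55 (0.55).

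Myc drives transcription of many of these genes. Of 8 tested genes of the Myc network 1 rose in FF cells (Mxd4, 0.52) and 2 fell (Myc and Mxd3, at -0.61 and -0.97). Of all tested genes 5.16% rose and 8.29% fell, and 0 of the 8 passed in either difference of responses. Myc itself had 168, 202 and 173 CPM in FF_4OHT libraries, against 344, 276 and 211 CPM in FF_EtOH libraries (log2 fold change -0.61 ± 0.18 SE; edgeR adjusted p = 0.0346). The difference from the WT response was -0.58 (adjusted p = 0.287) and did not pass. In ethanol Myc was higher in Het than in WT libraries, by 0.60 ± 0.18 (SE, edgeR adjusted p = 0.0233). In that comparison 41 of 49 member estimates lay below 0 and 8 above, beside 6895 of 12859 below 0 for all tested genes. A link between Myc and the members' levels was not tested. Mdm2, the p53 inhibitor that free ribosomal proteins of the unassembled large subunit bind, had 169, 137 and 136 CPM in FF_4OHT libraries, against 93.7, 87.1 and 86.9 CPM in FF_EtOH libraries (0.72 ± 0.15 SE; edgeR adjusted p = 0.00482). The differences from the WT and the Het response, 0.76 and 0.78, did not pass (adjusted p = 0.0733 and 0.0611). The other 4 genes of that list did not pass. The lists and these genes were chosen with earlier results of these data known.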

How the data were processed

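RNA-seq counts per gene were deposited for 18 libraries in 6 groups of 3, grouped by the labels. The submitters' processing notes list build mm10, featureCounts 1.5.2 (with Subread), the aligner HISAT2 2.0.5, FastQC 0.11.7 and CASAVA 1.4, without saying how each was run. The authors' deposited counts are whole numbers and were used as they stand. Totals per library ran from 24730213 to 49277884. Of 153 pairs of libraries 0 were identical, the smallest chi-square per gene being 8.92.

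Genes were kept by edgeR's filterByExpr (minimum count 10), scaled by TMM and fitted with edgeR 4.0.16 (robust quasi-likelihood, R 4.3.3) over all 18 libraries with a mean per group. Calls used a Benjamini-Hochberg adjusted p under 0.05 over all 12859 genes. Differences between responses were contrasts of that fit. DESeq2 1.42.0, limma voom 3.58.1, other scalings and filters, the compared groups alone, a replicate block and omitted libraries were tried. Members and lists were chosen with earlier results of these data known. Values in every library are given for members past the threshold, for up to 4 members with the smallest adjusted p between lines in ethanol and, in a role with none past it, for the member with the smallest p and the most abundant one. Up to 4 other pathway genes with the smallest adjusted p are named.

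Same-lettered Het libraries deviated together (correlations 0.476, 0.697 and 0.402 across genes), and no other comparison had all 3 above 0.1. Libraries of unlike letters were not compared, so these values cannot decide whether the letters pair the Het libraries. RPKM used the longest APPRIS principal transcript of each gene in GENCODE M21, and sequences came from RefSeq and the GRCm38 genome.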

Additional observations from a re-analysis of the deposited data

Results flagged for a closer look

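The 4OHT responses of 4 genes differed between lines in a test of the difference itself (edgeR, adjusted over all tested genes). Against the WT response, the FF response was lower by -0.82 for Polr1a, -0.82 for Tcof1 and -0.60 for Nat10 on the log2 scale. Against the Het response it was lower by -0.85 for Polr1a, -0.80 for Tcof1, -0.65 for Nat10 and -0.66 for Bop1. Lower in these differences were 6.12% and 8.16% of the members, beside 1.89% and 2.09% of all tested genes. Both comparisons use the same FF libraries. Over 12 omissions of a single library, Polr1a passed in 11 against either line. Against WT, Tcof1 passed in 4 and Nat10 in 2. Against Het, Tcof1 and Nat10 passed in 6 each and Bop1 in 3. Fitted on the compared groups only, none of the differences from Het passed.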

How the results depend on the processing

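Polr1a, Tcof1 and Nat10 passed in FF cells in all 6 omissions of a single library and in all 11 other settings. Members called in FF cells, 6 as reported, were 16 with a replicate block (32.7%, beside 21.5% of all tested genes), 12 without FF_EtOH C, WT_4OHT C and Het_4OHT A (24.5%, beside 21.5%), and 3 to 6 with single omissions; the letters were not shown to pair the FF libraries (correlations 0.167, 0.182 and 0.0671). For the FF minus WT response, 3 as reported, the count was 1 without FF_EtOH C, WT_4OHT C and WT_EtOH C (all tested genes 0.553%), 4 with a replicate block (4.9%), 4 without FF_EtOH C, WT_4OHT C and Het_4OHT A (4.14%), and 0 to 3 with single omissions. Both counts of 4 include Polr1c as higher, by 0.85 with the block (edgeR adjusted p = 0.0274). For the FF minus Het response, 4 as reported, it was 0 with only the compared groups (0.448%), 9 with a replicate block (5.87%), 6 without FF_EtOH C, WT_4OHT C and Het_4OHT A (5.18%), and 0 to 5 with single omissions. With the block Polr1c (0.0406) and Dkc1 (0.0489) passed there. For Het_EtOH against WT_EtOH, 4 as reported, it was 2 with library size only, 2 with at least 5 CPM in 3 libraries, and 2 without FF_EtOH C, WT_4OHT C and WT_EtOH C. In these settings 4.08% of the members were lower, beside 7%, 8.25% and 8.62% of all tested genes. The count was 11 without FF_EtOH C, WT_4OHT C and Het_4OHT A (all lower, 22.4%, beside 14.5% of all tested genes), and 1 to 4 with single omissions. Over all genes that comparison gave 1714 higher and 1335 lower, and 2185 higher and 900 lower with library size only. The cause of these shifts was not tested. The block, which treats same-lettered libraries of a line as pairs, left the members called in Het cells at 0.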
